A study of Mus musculus with 12 samples.

Results

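Tumours of 2 B16 melanoma models that carried the same empty Vector were compared with each other, to show how far apart the models stood without over-expression of Aoah. The comparison took 6 of the 12 bulk tumour libraries of the study, 4 B16mhgp100 Vector tumours and 2 B16F10 Vector tumours. Genes were taken where at least 2 of these 6 libraries reached 1 TPM (a level of transcript that takes account of gene length and of the library total), which kept 15267 of 32416 genes. All tumours grew under the skin of C57BL/6 mice and all mice received antibody, so no group was untreated. The B16mhgp100 mice received anti-PD1 with the first dose on day 10, and the B16F10 mice received anti-PD1 and anti-CTLA4 with the first dose on day 6. Each antibody was given at 200 µg a dose, with 2 doses a week and 4 in all, and harvest followed 1 day after the final dose. Model, antibodies and first day changed together, so their parts in any difference cannot be told apart. The other 6 tumours of the study over-expressed Aoah, which encodes acyloxyacyl hydrolase, with the same models, antibodies and days, in 4 B16mhgp100 and 2 B16F10 tumours.

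B16 is a pigmented melanoma line that arose in C57BL/6 mice, and B16F10 is a subline selected for spread to the lung. The protein gp100, encoded by Pmel, builds the fibres on which melanin is laid down in melanosomes and is a classical T cell antigen of melanoma. Interferons act through STAT and IRF factors to switch on antiviral genes, antigen presentation by MHC class I and chemokines that attract T cells, and tumours of this line are known for low resting MHC class I. PD1 and CTLA4 are brakes on T cells that the antibodies block.

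No listed melanocyte gene was called between the groups, and all 6 tumours held few lymphocyte transcripts. Pmel stood at 7682, 14906, 10926 and 10415 TPM in the B16mhgp100 tumours and at 7197 and 8252 TPM in the B16F10 tumours. The groups overlapped, and their log2 difference, 0.47 (SE 0.25), was not called (limma adjusted p = 0.276). Aoah itself was low, at 7.58, 0.89, 2.43 and 1.57 TPM against 1.49 and 0.75 TPM (log2 difference 0.73, SE 0.57, limma adjusted p = 0.460). Cd8a, a chain of the cytotoxic T cell co-receptor, reached at most 3.24 TPM, and Ms4a1, the B cell marker CD20, reached at most 0.08 TPM. Each library had from 13775 to 14791 genes at 1 TPM or more, and correlations between libraries in log2(TPM + 1) ran from 0.914 to 0.977. B16F10 Vector 2 stood apart by its mitochondrially encoded transcripts, which made up 10.4% of TPM against 3.57% to 5.07% in the other 5 libraries. Muscle genes marked B16mhgp100 Vector 1 and B16F10 Vector 2, with Acta1, the skeletal actin, at 165 and 55.3 TPM against 1.83 to 27.1 TPM elsewhere. TPM keeps no read depth, so no counting error can be given.

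Of the 15267 genes, 743 (4.87%) differed between the groups at an adjusted p of 0.05 (limma on log2(TPM + 1), Benjamini-Hochberg adjustment over all genes tested). In the B16mhgp100 tumours 459 genes were higher (3.01%) and 284 were lower (1.86%), and 522 of the 743 differed by at least 1 on the log2 scale. Without adjustment, 3850 genes had a p below 0.05, and the values of the groups did not overlap for 5292 genes (34.7%). The median log2 difference over all kept genes was 0.12, and -0.01 after median-of-ratios scaling, so the values below are to be read against that shift. Of the 459 higher genes 70, and of the 284 lower genes 45, stayed below 1 TPM in every library of the other group, so they met the minimum only through the group where they were high. The balance of directions moved with the settings. Of the calls 61.8% were higher as deposited, 49.3% after median-of-ratios scaling, 49.5% after quantile normalization and 48.2% with no filter on low values. The share was 72.8% with array weights, 70.1% against a log2 change of 0.5, 81.4% without B16F10 Vector 1 and 77.5% without B16F10 Vector 2. A correction for transcript length, chosen after seeing the data, gave 51.3%. The count rested on single libraries too. It was 422 without B16mhgp100 Vector 1, 501 without B16mhgp100 Vector 2, 167 without B16mhgp100 Vector 3 and 288 without B16mhgp100 Vector 4. It was 160 without B16F10 Vector 2 and 3814 without B16F10 Vector 1, where the lone B16F10 library is assumed to vary like the B16mhgp100 tumours. The labels leave unsaid whether each tumour grew in its own mouse, so the p-values reflect only how much these 6 tumours varied.

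The 12 largest differences in favour of B16mhgp100, among named genes whose mean reached 5 TPM in either group, came from germline, endocrine, metabolic and interferon-linked genes. Each of these 12 passed the test under all 19 alternative settings, and 5 of them (Nr5a1, Xlr, Cxcl11, Mrap and Vmn1r139) met the minimum of 1 TPM only through B16mhgp100. Piwil2, an Argonaute protein of the germ line that binds piRNA, stood at 49.8, 55.1, 52.5 and 55.7 TPM in B16mhgp100 and at 1.05 and 1.22 TPM in B16F10. The 4 B16mhgp100 libraries lay within a narrow band, 46.9-fold above the mean of the others (log2 difference 4.67, SE 0.15, limma adjusted p = 6.01e-05). Nr5a1, the steroidogenic nuclear receptor SF1, was at 16.1 to 19.3 TPM against 0.22 and 0.27 TPM, a log2 difference of 3.89 (SE 0.18). Mrap, the accessory protein of the melanocortin receptor in the adrenal gland, was at 17.4 to 22.1 TPM against 0.74 and 0.81 TPM (3.56 on the log2 scale, SE 0.19). Both genes are best known from steroid-producing tissue, and the groups did not overlap for either.

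Hspb8, a small heat shock protein, was at 53.4 to 61.0 TPM in B16mhgp100 and at 2.27 and 3.40 TPM in B16F10. Slc2a4, the insulin-responsive glucose transporter GLUT4, was at 23.4, 66.6, 51.8 and 43.4 TPM against 1.93 and 2.28 TPM. Slit2, a secreted guidance cue that binds Robo receptors, was at 29.2, 57.4, 51.2 and 37.6 TPM against 2.70 and 1.5 TPM. For Slc2a4 and Slit2 the lowest B16mhgp100 library was Vector 1, and it still lay far above both B16F10 libraries (log2 differences of 3.84 for both, SE 0.37 and 0.30). Mgarp, a mitochondrial protein, had the highest level of the 12, with 469 to 673 TPM against 51.9 and 47.6 TPM (log2 difference 3.54, SE 0.16). Xlr, an X-linked gene of a multicopy family, was at 15.1 to 18.9 TPM against 0.37 and 0.14 TPM. Vmn1r139, a vomeronasal receptor gene, was at 7.37, 16, 17.6 and 16.8 TPM and was listed at 0 and at 0.59 TPM in B16F10. Xlr and Vmn1r139 have near-identical relatives among which reads may have been divided, so their values are less certain.

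Apol9a and Apol9b, neighbouring apolipoprotein L genes that interferon induces, completed the set with Cxcl11, a chemokine for the T cell receptor CXCR3. Apol9a stood at 133, 145, 165 and 158 TPM against 13.4 and 6.5 TPM, a log2 difference of 3.86 (SE 0.25, limma adjusted p = 0.000732). Apol9b stood at 148, 151, 176 and 163 TPM against 16.4 and 5.79 TPM (3.88, SE 0.33), and because the copies are nearly identical the pair is best read as 1 signal. Cxcl11 was at 16.2, 15.1, 22.0 and 23.2 TPM against 0.41 and 0.78 TPM (3.64, SE 0.25, limma adjusted p = 0.000798). In each of the 3 genes every B16mhgp100 library lay above both B16F10 libraries.

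The 12 largest differences in favour of B16F10 mixed macrophage, eosinophil and neuropeptide genes, and 4 of them (Foxr2, Rnase2a, Ccl24 and Bex1) met the minimum of 1 TPM only through B16F10. Retnla, a secreted protein that marks macrophages activated by type 2 cytokines, was at 5.43, 9.87, 4.90 and 4.85 TPM in B16mhgp100 and at 571 and 340 TPM in B16F10. That was a 72.7-fold lower mean (log2 difference -5.98, SE 0.32, limma adjusted p = 0.000224). Ccl24, the eosinophil chemokine eotaxin-2, was at 0.27 to 0.87 TPM against 42.6 and 10.2 TPM (-3.88, SE 0.51). Mgl2, a galactose-binding lectin of macrophages and dendritic cells, was at 0.40 to 2.60 TPM against 33.2 and 19.5 TPM (-3.45, SE 0.42). Rnase2a and Ear2, related ribonucleases of eosinophils and macrophages, were lower as well. Rnase2a was listed at 0 in B16mhgp100 Vector 1 and 2 and at 0.21 and 0.44 TPM in the other two, against 65.1 and 14.2 TPM. Ear2 was at 0.86 to 3.16 TPM against 35.3 and 18.4 TPM (-3.26, SE 0.40). In a fit of all 12 libraries Retnla, Mgl2 and Ear2 lost the call, with limma adjusted p = 0.063, 0.081 and 0.11.

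Others of the 12 lower genes are best known outside immune cells. Foxr2, a forkhead transcription factor, was at 0.15 to 0.25 TPM in every B16mhgp100 library and at 40.7 and 51.0 TPM in B16F10, a 235-fold difference of the means (log2 difference -5.29, SE 0.21, limma adjusted p = 0.000148). Cort and Cck encode the neuropeptides cortistatin and cholecystokinin. Cort was at 0.48, 2.58, 0.64 and 0.90 TPM against 20.5 and 39.9 TPM, and Cck at 0.23, 3.65, 0.37 and 0.77 TPM against 34.0 and 19.9 TPM. B16mhgp100 Vector 2 was the highest of its group for both and still lay below B16F10. Without B16F10 Vector 2 the limma adjusted p was 0.058 for Cort and 0.079 for Cck, and without B16mhgp100 Vector 3 it was 0.053 for Cck. Podxl2, a sialomucin, Bex1, an X-linked gene of neural tissue, and Dcdc2a, a doublecortin domain protein, were lower with log2 differences of -3.73, -3.52 and -3.24.

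**Figure D1:**
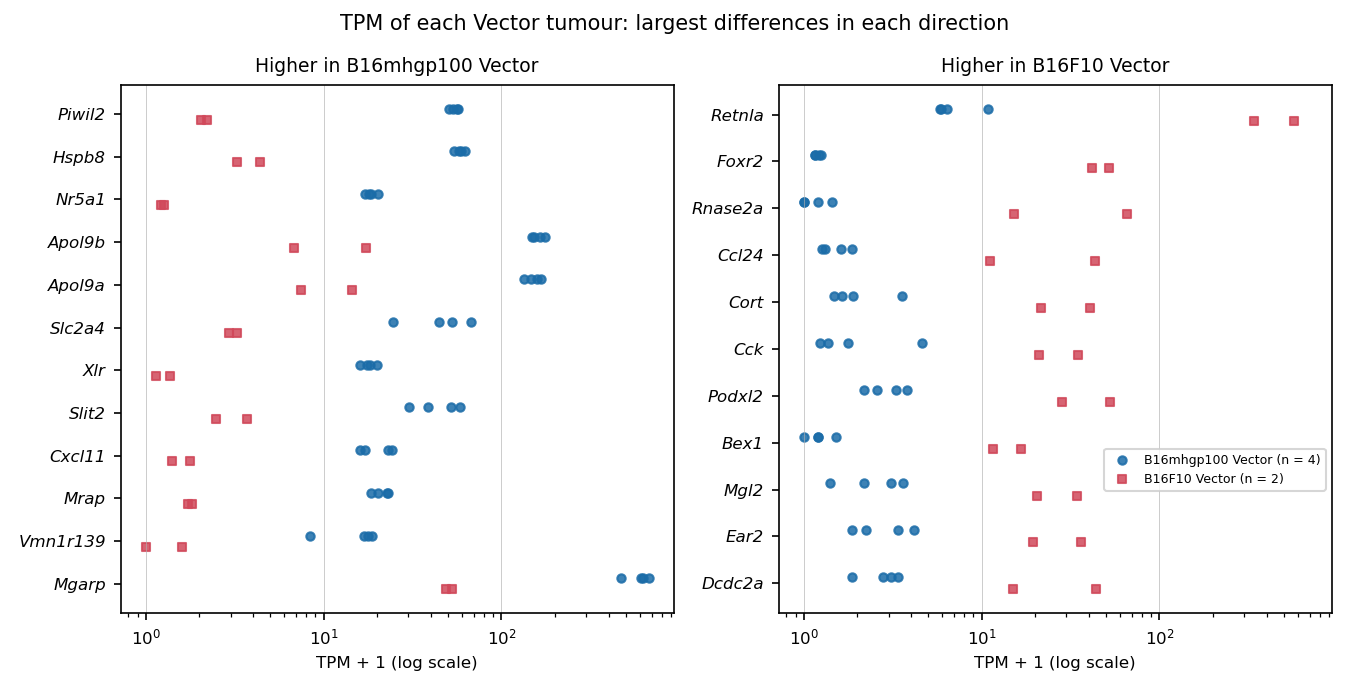
Each point is 1 Vector tumour, with TPM + 1 on a log axis, for the reported genes among the 12 with the largest log2 difference in each direction (circles, 4 B16mhgp100 tumours; squares, 2 B16F10 tumours). Retnla lies at 9.87 TPM or less in B16mhgp100 and at 340 TPM or more in B16F10, and no gene shown has overlapping groups.

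Of 18 genes of MHC class I presentation 11 passed the test as higher in B16mhgp100 and none as lower. All 18 had a log2 difference above 0, where 3.01% of all genes were called higher. The list's median log2 difference was 1.41 against 0.12 over all genes, and its summed level ran from 8278 to 11252 TPM in B16mhgp100 and from 2928 to 4420 TPM in B16F10. B2m, the light chain shared by all class I molecules, stood at 4541, 3487, 4355 and 4234 TPM against 1735 and 1278 TPM (log2 difference 1.47, SE 0.17, limma adjusted p = 0.00760). H2-K1, a classical heavy chain, stood at 2137, 1430, 1925 and 1885 TPM against 710 and 455 TPM (1.68, SE 0.22). Psmb8, an immunoproteasome subunit that shapes the peptides to be shown, stood at 444, 319, 475 and 423 TPM against 119 and 59.0 TPM (2.28, SE 0.28). In each of these genes B16mhgp100 Vector 2 was the lowest of its group and B16F10 Vector 2 the lowest of all, and the groups did not overlap.

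Other called genes cover further steps of the pathway. Nlrc5, the transactivator of class I genes, was at 66.4 to 109 TPM against 29.3 and 9.33 TPM (2.38). Tap1, 1 of the 2 chains of the peptide pump of the endoplasmic reticulum, was at 125 to 201 TPM against 61.5 and 31.5 TPM (1.86), and its partner Tap2 was also higher (1.30). H2-Q4 and H2-D1, Psmb9 and the proteasome activator subunits Psme1 and Psme2 were higher by 1.10 to 2.01. H2-Q and related heavy chain genes resemble one another, and reads may have been divided among them. The 7 members that were not called, among them H2-T23, Tapbp and Erap1, had log2 differences of 0.99 to 1.49. Calls over all genes moved with the library left out, as given above, and the counts of this list are to be read against that. The number of members called was 7, 11, 4 and 6 without B16mhgp100 Vector 1, 2, 3 and 4 in turn. It was 16 without B16F10 Vector 1 and 4 without B16F10 Vector 2, where H2-K1 had a limma adjusted p of 0.067.

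Interferon-stimulated genes were higher as well. Of 20 genes of the type I interferon list 13 passed the test, all higher, with a median log2 difference of 1.5. Among 18 kept genes of the interferon-gamma list 8 passed, all higher, with a median of 1.91, and in both lists every kept member was above 0. Of these 8, Cxcl11 met the minimum of 1 TPM only through B16mhgp100. The called members are shown with the promoters of a few of them, since interferon acts through a motif in the DNA before the start of such genes. The 120 bases before the RefSeq start (GRCm38.p6) hold this motif, GAAANNGAAA on either strand, in the 5 higher genes below, with overlapping matches joined and the motif in capitals. They are Apol9a (chr15:77411081-77411200, minus strand), Isg15 (chr4:156200819-156200938, minus strand), Oas1a (chr5:120907526-120907645, minus strand), Ifit1 (chr19:34640769-34640888, plus strand) and Irgm1 (chr11:48871421-48871540, minus strand), each written 5′ to 3′ on the strand of the gene.
Apol9a: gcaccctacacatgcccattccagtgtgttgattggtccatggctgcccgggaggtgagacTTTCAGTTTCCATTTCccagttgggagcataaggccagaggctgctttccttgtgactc
Isg15: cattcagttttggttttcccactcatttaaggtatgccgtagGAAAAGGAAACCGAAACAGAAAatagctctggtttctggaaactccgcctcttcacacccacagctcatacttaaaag
Oas1a: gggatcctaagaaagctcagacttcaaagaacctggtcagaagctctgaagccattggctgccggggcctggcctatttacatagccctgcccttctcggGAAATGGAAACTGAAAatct
Ifit1: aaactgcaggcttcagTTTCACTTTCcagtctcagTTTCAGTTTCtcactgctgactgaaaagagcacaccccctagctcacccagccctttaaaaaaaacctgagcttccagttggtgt
Irgm1: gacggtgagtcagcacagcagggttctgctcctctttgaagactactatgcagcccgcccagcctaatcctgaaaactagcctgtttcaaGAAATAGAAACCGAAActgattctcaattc

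The motif occurred in 3.44% of all 32851 RefSeq promoter windows of this kind, each from 250 bases before to 50 bases after a start. Among kept genes with a window it was found for 3.89% of 10653, for 12.9% of the 334 genes called higher and for 2.39% of the 209 genes called lower. A window was at hand for 13 of 20 type I genes, 7 of which held the motif, and for 13 of 19 interferon-gamma genes, 9 of which held it. These shares describe letters in the windows and were not tested.

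Among the type I genes, Irf7, the factor that amplifies the response, was at 72.9, 59.2, 72.1 and 69.5 TPM in B16mhgp100 and at 17.2 and 12 TPM in B16F10 (log2 difference 2.17, SE 0.18, limma adjusted p = 0.00182). Isg15, a ubiquitin-like protein, was at 137, 111, 173 and 149 TPM against 42.4 and 23.7 TPM (2.11, SE 0.26). Oasl2, of the oligoadenylate synthetase family, was at 89.4, 73.8, 105 and 94.1 TPM against 19.4 and 9.59 TPM (2.63, SE 0.27). These 3 kept groups that did not overlap, with B16F10 Vector 1 above B16F10 Vector 2 in each. Bst2, the tether of budding virus, was high in both models, at 816 to 933 TPM against 416 and 448 TPM (1.02, SE 0.11). Zbp1, a sensor of nucleic acids that can start cell death, had the largest difference of the list, with 65.0 to 150.4 TPM against 23.1 and 7.16 TPM (2.96). The members that were not called, such as Mx1, Mx2, Rsad2 and Ifit2, had log2 differences of 0.52 to 1.63.

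Of the interferon-gamma genes, Cxcl9, a chemokine for CXCR3, was at 24.7, 11.9, 42.9 and 46.5 TPM against 4.58 and 2.91 TPM (log2 difference 2.63, SE 0.51, limma adjusted p = 0.0369). Gbp3, a guanylate-binding protein that acts on intracellular pathogens, was at 64.4, 37.3, 92.3 and 83.6 TPM against 18.9 and 9.04 TPM (2.24, SE 0.41). B16mhgp100 Vector 3 and 4 were the high libraries and Vector 2 the lowest of its group for both. Ifng itself was low, at 0.55 to 2.06 TPM against 0.51 TPM and a listing at 0 (0.91, limma adjusted p = 0.166). Interferon-linked genes outside these lists, chosen after their values were seen, were higher too. Casp1, the protease of the inflammasome, was at 41.0, 22.3, 44.5 and 42.6 TPM against 5.94 and 3.71 TPM. Tgtp1, an immunity-related GTPase, was at 107, 90.8, 289.5 and 240.3 TPM against 25.6 and 7.28 TPM. Without B16F10 Vector 2 Casp1 and Tgtp1 had limma adjusted p = 0.062 and 0.14, and Tgtp1 also lost the call without B16mhgp100 Vector 3 (0.075) and Vector 4 (0.072).

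Cxcl11, the call that lasted longest in the interferon-gamma list, was tested only because of the group where it was high. The interferon-gamma calls were the less secure of the 2 lists. They fell from 8 to 1, Cxcl11, without B16mhgp100 Vector 1, Vector 3, Vector 4 or B16F10 Vector 2, stood at 8 without B16mhgp100 Vector 2 and at 14 without B16F10 Vector 1. For the type I list the counts were 9, 12, 4 and 5 without B16mhgp100 Vector 1 to 4 in turn, 17 without B16F10 Vector 1 and 6 without B16F10 Vector 2. Calls over all genes moved in these settings too, as given above. The list medians stayed above 0 in every setting run, between 1.20 and 2.47 for the interferon-gamma list and between 1.12 and 1.95 for the type I list. Both lowest medians came without B16F10 Vector 2, where that over all kept genes was -0.003. Both highest came without B16F10 Vector 1, where it was 0.25.

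**Figure D2:**
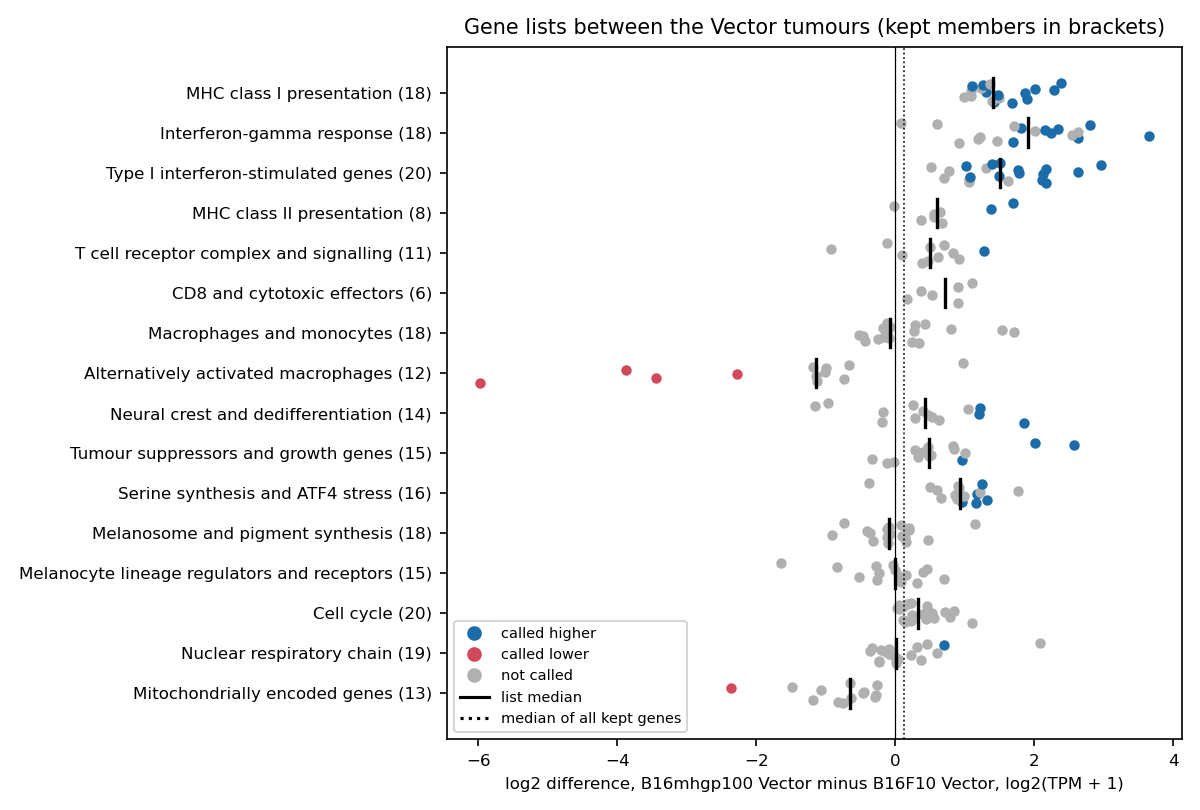
Each point is a kept gene of a list, placed by its log2 difference between the Vector tumours, and bars are list medians (blue, called higher; red, called lower; grey, not called). MHC class I, interferon-gamma and type I interferon genes lie right of 0 throughout, with medians of 1.41, 1.91 and 1.5, while alternatively activated macrophage genes lie mostly left, with a median of -1.14.

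Markers of T cells and other lymphocytes were present at low levels and gave few calls beside the interferon genes. Of 11 kept genes of T cell receptor signalling 1 was called, and the summed level of all 16 members of the list ran from 30.2 to 56.4 TPM in B16mhgp100 and from 16.9 to 34.7 TPM in B16F10. The gene called was Lck, the kinase of the CD4 and CD8 co-receptors, at 15.4, 12.2, 15.1 and 11.1 TPM against 6.95 and 3.40 TPM (log2 difference 1.28, SE 0.28, limma adjusted p = 0.0477). Its call was lost without any 1 of the B16mhgp100 libraries or B16F10 Vector 2, with limma adjusted p between 0.078 and 0.14. The CD3 chains Cd3d, Cd3e and Cd3g overlapped between the groups and had log2 differences of 0.39, 0.47 and 0.92. Lat, an adaptor of the same receptor, went the other way without overlap, at 2.49, 1.96, 2.07 and 1.62 TPM against 5.03 and 4.49 TPM (-0.93, limma adjusted p = 0.0612). It was called lower in 5 alternative settings, among them median-of-ratios scaling (limma adjusted p = 0.0366). None of the 6 kept genes of CD8 cells and cytotoxic granules was called by limma (2 at an unadjusted p below 0.05), with a median of 0.71, and all 11 members of the list summed to 23.1 to 50.5 TPM against 14.6 to 24.1 TPM. Ccl5, a chemokine of activated T cells, was at 28.3, 12.2, 24.7 and 14.7 TPM against 9.92 and 6.89 TPM (1.10, limma adjusted p = 0.118). None of the kept genes of CD4 and regulatory T cells (6), checkpoint receptors and ligands (11) or NK cells (4) was called, with medians of 0.58, 0.41 and 0.52 and with 1, 3 and 1 at an unadjusted p below 0.05. Cd274, which encodes the ligand of PD1, was at 16.8 to 25.7 TPM against 12 and 9.29 TPM (0.96, limma adjusted p = 0.0589). Fewer cells of a type and less RNA per cell cannot be told apart in bulk tumours, and the part of these cells in the interferon genes was not tested.

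The deposited repertoire counts were as small as the T cell transcripts. T cell receptor beta clones numbered 5, 3, 8 and 3 in B16mhgp100 and 2 and 1 in B16F10, with no overlap of the groups. An exact 2-sided permutation test over samples gave p = 0.133 (adjusted 0.4 over the 8 measures tested), in a design whose smallest p is 0.0667. Alpha chain clones numbered 9, 0, 2 and 4 against 1 and 2 (exact permutation p = 0.667). Immunoglobulin heavy chain clones numbered 10, 1, 1 and 0 against 45 and 0 (exact permutation p = 0.333). Light chain clones, labelled IGL, numbered 15, 1, 3 and 0 against 72 and 3 (exact permutation p = 0.2). The immunoglobulin counts came mainly from B16F10 Vector 1 and B16mhgp100 Vector 1, which also had the highest Igkc, the kappa constant region, at 29.1 and 4.8 TPM.

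MHC class II presentation gave a mixed picture. Of 8 kept genes 2 were called higher, with a median log2 difference of 0.60. H2-DMb1, a chain of the peptide editor of class II, was at 79.5, 56.6, 83.3 and 71.6 TPM against 26.3 and 27.8 TPM (1.38, SE 0.18, limma adjusted p = 0.00975). Ciita, the class II transactivator, was at 9.05, 4.64, 10.3 and 9.09 TPM against 2.25 and 1.36 TPM (1.70, SE 0.33, limma adjusted p = 0.0360). The class II chains were not called, and H2-Aa, at 300.2, 72.0, 185 and 155 TPM against 128 and 76.3 TPM, overlapped between the groups. Neither call held without B16F10 Vector 2 (limma adjusted p = 0.058 for H2-DMb1 and 0.15 for Ciita), and Ciita also lost it without B16mhgp100 Vector 1 (0.067), Vector 3 (0.11) and Vector 4 (0.10).

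Of 12 genes of alternatively activated macrophages, the state induced by interleukin 4 and 13, 4 were called lower in B16mhgp100, Retnla, Mgl2, Ccl24 and Ccl17, where 1.86% of all genes were called lower. Ccl24 and Ccl17 met the minimum of 1 TPM only through the B16F10 tumours, where they were high, which leaves Retnla and Mgl2 as calls of genes that B16mhgp100 also expressed. The other 8 were not called, 7 of them below 0, and Il4ra, a chain of the interleukin 4 receptor, lay above 0 (0.97, limma adjusted p = 0.327). The list's median was -1.14. The summed level of the list was 36.9 to 176 TPM in B16mhgp100 and 477 to 847 TPM in B16F10. Retnla made up most of the sum in B16F10, at 571 and 340 TPM, and a small part in B16mhgp100, at 4.85 to 9.87 TPM. The gap between the sums was therefore largely that of Retnla. Ccl17, a chemokine for CCR4, was at 0.36 and 0.33 TPM in B16mhgp100 Vector 1 and 3, was listed at 0 in the other two, and was at 5.08 and 4.16 TPM in B16F10 (-2.27, SE 0.27, limma adjusted p = 0.00796). Arg1, arginase, was at 33.4, 10.7, 30.8 and 53.2 TPM against 119 and 32.3 TPM and overlapped (-1.13, limma adjusted p = 0.328). Without B16mhgp100 Vector 1 the list had 6 calls. Without B16F10 Vector 1 or Vector 2, Ccl24 and Ccl17 no longer met the minimum and were not tested, while Retnla and Mgl2 passed.

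None of the 18 general macrophage and monocyte genes was called by limma, with a median of -0.08 and 3 at an unadjusted p below 0.05. Csf1r, the receptor for the macrophage growth factor, was at 67.1, 11.9, 24.8 and 21.9 TPM against 29.5 and 16 TPM (0.24, limma adjusted p = 0.834), and C1qa, of complement, at 331, 55.9, 149 and 126 TPM against 159 and 168 TPM. For both genes B16mhgp100 Vector 1 was the highest library and Vector 2 the lowest. The summed level of the list was 4524, 3677, 3466 and 3334 TPM against 3305 and 4973 TPM, so that the B16F10 tumours were the lowest and the highest. Most of this sum was Apoe, at 2888, 3377, 2682 and 2672 TPM against 2517 and 4260 TPM. Apoe had the same lowest and highest library, so the sum says little about the other members. Among 8 dendritic cell genes only Fscn1, an actin-bundling protein of mature dendritic cells that tumour cells can also make, was called. It was at 69.4, 40.4, 41.9 and 54.1 TPM against 363 and 338 TPM (-2.78, SE 0.22, limma adjusted p = 0.00182). The dendritic cell markers Flt3 and Xcr1 reached at most 1.01 and 0.31 TPM in any of the 6 libraries. None of 7 neutrophil, 4 mast cell and eosinophil or 3 B and plasma cell genes was called by limma, and 1, 1 and 0 had an unadjusted p below 0.05.

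**Figure D3:**
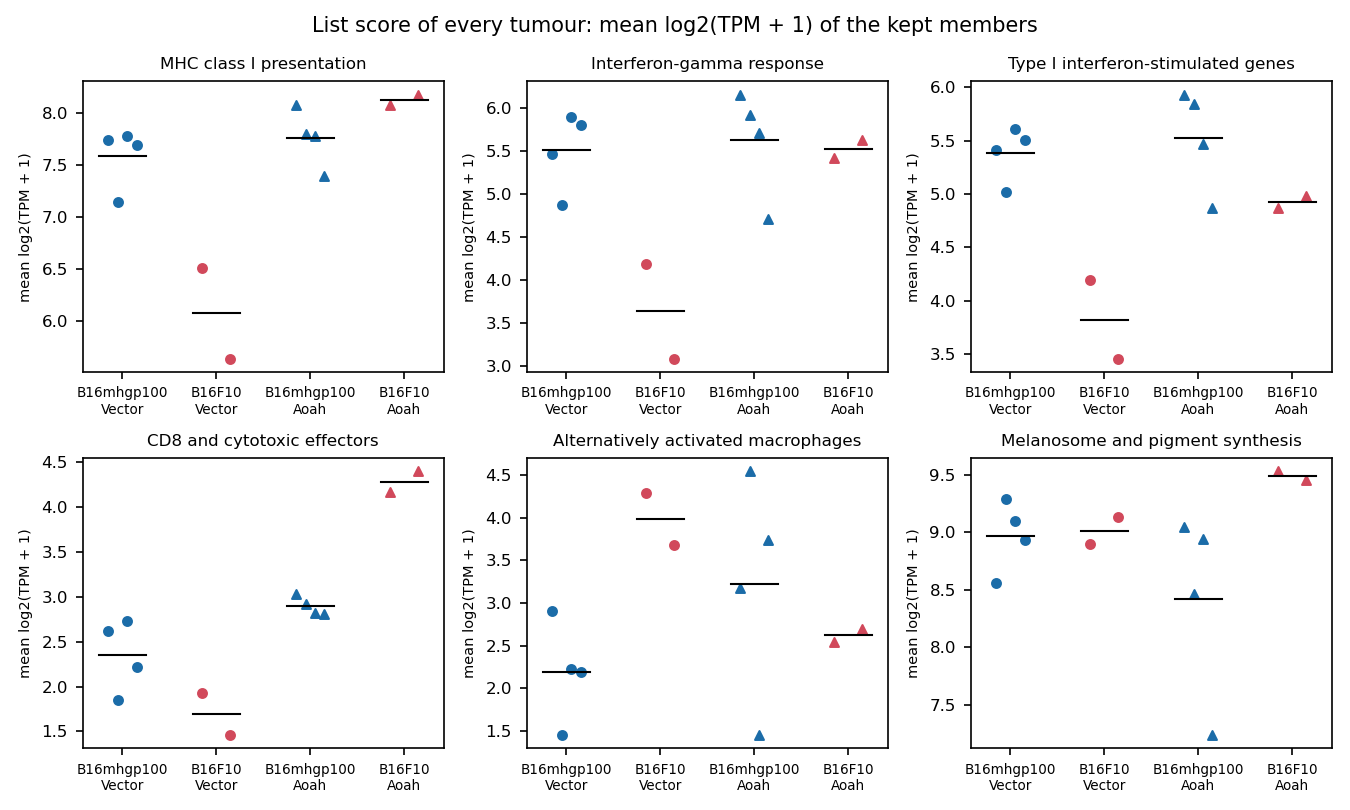
Each point is 1 tumour, placed by the mean log2(TPM + 1) of a list's kept members, with bars for group means (circles, Vector; triangles, Aoah; blue, B16mhgp100; red, B16F10). In the MHC class I and both interferon panels the 2 B16F10 Vector tumours lie below the other 10 tumours, and in the pigment panel the Vector groups overlap.

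In lists of genes that melanoma cells are known to express, the pigment genes gave no call and a few invasion and growth genes differed. Bulk RNA cannot assign these transcripts to the tumour cells. None of 18 melanosome genes and none of 15 melanocyte regulators was called by limma, with medians of -0.09 and -0.01. An unadjusted p below 0.05 was found for 2 and 4 of them. The groups did not overlap for 3 and 4 of them, where the share over all kept genes was 34.7%. With 4 against 2 tumours, no call does not show that the groups were alike. Of 14 kept genes linked to the neural crest and to dedifferentiation, 3 were called higher, where 3.01% of all genes were. The list's median was 0.43, with 10 genes above 0 and 4 below. S100b and Gfra2 went the other way without a call, with log2 differences of -1.16 and -0.97 (limma adjusted p = 0.144 and 0.165). Axl, a receptor kinase tied to invasion and drug resistance in melanoma, was at 72.3, 62.4, 66.7 and 70.2 TPM against 17.6 and 18.6 TPM. Its log2 difference was 1.85 (SE 0.13, limma adjusted p = 0.000810). In the Aoah tumours Axl was at 122, 82.4, 70.7 and 24.0 TPM in B16mhgp100 and at 118 and 137 TPM in B16F10. There its log2 difference was -0.97 (limma adjusted p = 0.59). Between the Vector tumours Mcam, an adhesion molecule, was at 207, 144, 201 and 209 TPM against 97.8 and 65.9 TPM (1.22). Tead4, a partner of YAP, was at 9.44 to 12.8 TPM against 4.75 and 3.65 TPM (1.21). Axl passed with any 1 library left out, and had a limma adjusted p of 0.081 in a fit of all 12 libraries. Mcam lost the call without B16mhgp100 Vector 1, 3 or 4 or B16F10 Vector 2 (limma adjusted p between 0.056 and 0.13), and Tead4 without B16mhgp100 Vector 3 or 4 or B16F10 Vector 2 (between 0.093 and 0.12).

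Of 15 kept tumour suppressor and growth genes 3 were higher, with a median of 0.48. Etv4 and Etv5 are factors of the ETS family that follow ERK signalling. Etv4 was at 39.7, 23.5, 28.7 and 30.2 TPM against 4.66 and 3.80 TPM (2.57, SE 0.22, limma adjusted p = 0.00243). Etv5 was at 36.3 to 47.6 TPM against 17.7 and 4.59 TPM (2.00, SE 0.43, limma adjusted p = 0.0459), and Mdm2, the ligase that restrains p53, at 62.7 to 81.9 TPM against 44.4 and 29.5 TPM (0.95, SE 0.19, limma adjusted p = 0.0411). Etv5 and Mdm2 lost the call without any 1 library except B16F10 Vector 1, with limma adjusted p between 0.059 and 0.13, and Etv4 kept it each time. Trp53, which encodes p53, and its target Cdkn1a overlapped between the groups, with log2 differences of -0.12 and -0.02.

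Serine synthesis and the ATF4 stress response, by which cells answer a lack of amino acids, had 5 of 16 genes higher and a median of 0.93. Phgdh, Psat1 and Psph are the enzymes of serine synthesis in their order. Phgdh was at 303, 280, 301 and 300.4 TPM against 164 and 107 TPM (1.16, SE 0.17, limma adjusted p = 0.0167). Psat1 was at 116 to 134 TPM against 82.7 and 49.2 TPM (0.96), and Psph at 45.8, 45.7, 50.6 and 51.3 TPM against 21.3 and 16.6 TPM (1.32, SE 0.15, limma adjusted p = 0.00724). The B16mhgp100 libraries were nearly level for all 3 and above both B16F10 libraries. The stress factors Atf5 and Ddit3 were higher by 1.25 and 1.18. Atf5 lost the call without B16mhgp100 Vector 2 or 3 or B16F10 Vector 2, and Ddit3 without any 1 library except B16F10 Vector 1 (limma adjusted p between 0.053 and 0.13). The list had 3, 2, 1 and 2 calls without B16mhgp100 Vector 1 to 4 in turn. Its median was 1.41 without B16F10 Vector 1 and 0.44 without B16F10 Vector 2, where that over all kept genes was 0.25 and -0.003. Phgdh lost its call without B16mhgp100 Vector 3 (limma adjusted p = 0.066) and Vector 4 (0.052), and Psph kept it with any 1 library left out.

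Single genes were called in other lists. Over all genes 4.87% were called, so 1 call in a list of this size says little about the list. Fosb, an immediate early factor, was at 0.79, 0.87, 0.54 and 0.37 TPM against 8.45 and 8.46 TPM (log2 difference -2.54, SE 0.24, limma adjusted p = 0.00366), the 1 call among 12 immediate early genes, and it met the minimum of 1 TPM only through B16F10. Pla2g4a, the cytosolic phospholipase that frees arachidonic acid, was at 14.5 to 19.97 TPM against 4.02 and 2.68 TPM (2.03, SE 0.21, limma adjusted p = 0.00513), the 1 call among 13 eicosanoid and phospholipid genes. Adm, the vasodilator adrenomedullin, was at 90.4, 79.0, 46.8 and 74.3 TPM against 16.5 and 28.0 TPM (1.67). It was the 1 call among 21 hypoxia and glycolysis genes, whose median was 0.04. Sparc, a matrix protein that melanoma cells secrete, was at 1104 to 1597 TPM against 565 and 642 TPM (1.08). It was the 1 call among 15 collagen and matrix genes, of which 9 lay below 0. Vwf, of endothelium, was at 22.0, 59.8, 46.3 and 48.6 TPM against 13.0 and 7.34 TPM (1.98), while Cdh5, an endothelial cadherin, overlapped (0.66). Vwf was the 1 call among 15 genes of endothelium and pericytes. Adm lost its call without B16mhgp100 Vector 1, 2 or 4 or B16F10 Vector 2 (limma adjusted p between 0.053 and 0.082). Without B16F10 Vector 2 the value was 0.083 for Sparc and 0.19 for Vwf. Sparc also lost the call without B16mhgp100 Vector 3 or 4 (0.060 and 0.065), and Vwf without B16mhgp100 Vector 2, 3 or 4 (0.069 to 0.12). Ccl12, a monocyte chemokine, was called among 11 inflammatory genes (1.33), and among 12 chaperone genes Hsp90b1 was higher (0.62) and Sdf2l1 lower (-0.58). These 3 lost the call without any 1 library except B16F10 Vector 1 (limma adjusted p between 0.053 and 0.19).

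Proliferation, cholesterol synthesis, fibroblast and skin genes gave no limma call. At an unadjusted p below 0.05 there were 1 of 20 cholesterol genes, 0 of 13 fibroblast genes and 0 of 6 keratinocyte genes. All 20 cell cycle genes lay above 0, with a median of 0.32, but limma called 0 and 7 had an unadjusted p below 0.05, and the result turned on which B16F10 library was kept. Without B16F10 Vector 2 the median was -0.04, where that over all kept genes was -0.003. Without B16F10 Vector 1 it was 0.66, where that over all kept genes was 0.25. The highest cell cycle difference was that of Mki67, a marker of dividing cells, at 38.5, 48.1, 45.9 and 50.9 TPM against 38.5 and 10.9 TPM (1.10, limma adjusted p = 0.163). All 13 mitochondrially encoded genes of the list lay below 0, with a median of -0.66. That median was -1.07 without B16F10 Vector 1. It was -0.15 without B16F10 Vector 2, the library where such transcripts made up 10.4% of TPM. Among these genes mt-Co3, a subunit of cytochrome oxidase, was called. It was at 836, 1025, 1180 and 1438 TPM against 3449 and 9323 TPM (-2.37, SE 0.39), and it lost the call without B16mhgp100 Vector 3 (limma adjusted p = 0.072) or B16F10 Vector 2 (0.075). Of 19 nuclear genes of the respiratory chain 1 was called, Atp5b (0.71, limma adjusted p = 0.0490), and the list's median was 0.00. Atp5b lost the call without any 1 library except B16F10 Vector 1 (limma adjusted p between 0.063 and 0.16) and after median-of-ratios scaling (0.066). Muscle genes had a median of 0.84 with none of 12 called, and the median was 2.68 without B16F10 Vector 2 and -0.94 without B16F10 Vector 1. Skin transcripts varied within each group, with Perp, a desmosome protein, at 23.5, 0.70, 0.41 and 1.28 TPM in B16mhgp100 and at 1.81 and 11.5 TPM in B16F10.

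The same models were compared in the 6 Aoah tumours, which share no library with the Vector tumours. Of 15399 genes tested there, 20 (0.13%) were called, 9 higher and 11 lower in B16mhgp100. They include Xlr, Cxcl11, Vmn1r139, Mgarp and Hspb8 among the higher genes and Foxr2, Cort and Dcdc2a among the lower. Of these, Xlr, Cxcl11 and Vmn1r139 met the minimum of 1 TPM there only through B16mhgp100, and Foxr2 only through B16F10. Of the 743 genes called between the Vector tumours, 16 were called the same way between the Aoah tumours, which is 2.15% of the 743 and 80% of the 20, and 0 the opposite way. B16mhgp100 Aoah 4 stood apart, with Pmel at 1774 TPM against 6952 to 15881 TPM in the other Aoah tumours. Its keratinocyte genes summed to 6023 TPM against at most 33.4 TPM in the others. Its skeletal muscle genes summed to 7974 TPM against at most 241 TPM. The part of skin and muscle in its other values was not tested. Without B16mhgp100 Aoah 4, an alternative chosen after seeing the data, 4268 of 15005 genes were called. Of them, 503 were called the same way between the Vector tumours. That is 67.7% of the 743 and 11.8% of the 4268, with 8 called the opposite way.

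Foxr2 was at 0.07 to 0.39 TPM in the B16mhgp100 Aoah tumours and at 22.8 and 29.0 TPM in B16F10 Aoah (log2 difference -4.49, limma adjusted p = 0.010). Piwil2 was at 50.8, 39, 54.3 and 11.8 TPM against 0.55 and 0.47 TPM (4.53, limma adjusted p = 0.079), where the lowest value was that of Aoah 4. Cxcl11 was at 15.3, 15.4, 15.6 and 9.93 TPM against 0.13 and 0.33 TPM (3.60), close to its difference of 3.64 between the Vector tumours. For these genes the models stood apart in the same direction in both sets of tumours. In the Aoah tumours each of them met the minimum of 1 TPM only through the group where it was high. Retnla went the other way, at 49.0, 204, 5.32 and 992 TPM in B16mhgp100 Aoah against 18.9 and 15.5 TPM (2.31, limma adjusted p = 0.67). Its levels within the B16mhgp100 Aoah tumours spanned more than the gap between the Vector groups.

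Of the class I and interferon genes only Cxcl11 was called between the Aoah tumours. The median log2 difference of the class I list was -0.47 there, that of the interferon-gamma list -0.24 and that of the type I list 0.42, with -0.33, 0.14 and 0.83 without Aoah 4. H2-K1 was at 2273, 1967, 1908 and 2116 TPM in B16mhgp100 Aoah and at 2787 and 3034 TPM in B16F10 Aoah, where the Vector tumours of B16F10 had 710 and 455 TPM. Apol9a was at 219, 129, 195 and 112 TPM in B16mhgp100 Aoah and at 125 and 123 TPM in B16F10 Aoah. The B16F10 Vector tumours were thus the low group among the 4 for both genes. For the T cell receptor list the median was -1.48 in the Aoah tumours against 0.50 in the Vector tumours.

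**Figure D4:**
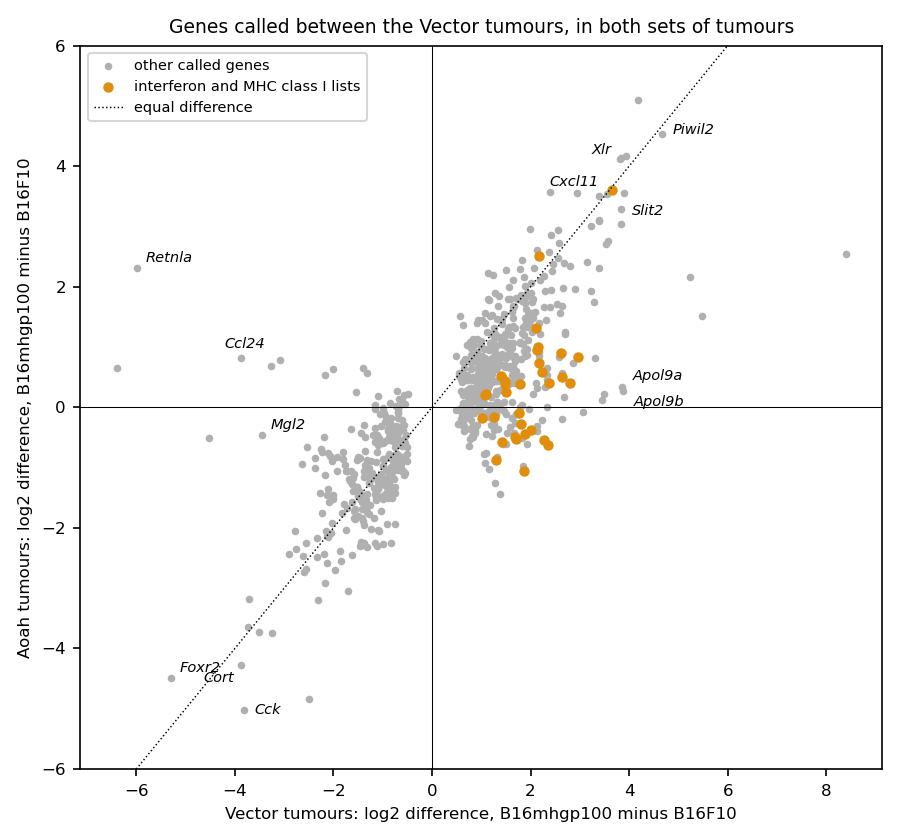
Each point is a gene called between the Vector tumours, with its log2 difference there (horizontal axis) and between the Aoah tumours (vertical axis), and the dotted line marks equal differences. Piwil2, Foxr2 and Cort lie near the line, and Retnla lies in the opposite corner. The called interferon and MHC class I genes lie below the line except Ifit1, with Cxcl11 close to it. All points were chosen by their Vector difference, which by itself favours a smaller difference in the Aoah tumours. The share below the line among all called genes was not computed.

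Whether the gap between the models itself differed was tested over all 12 libraries. Of 16556 genes 5 passed (0.0302%), and 936 had an unadjusted p below 0.05. The signed log2 difference of B16mhgp100 over B16F10 in the Vector tumours exceeded that in the Aoah tumours by 3.52 for Apol9a (limma adjusted p = 0.0302), by 2.82 for the class II editor chain H2-DMb1 (0.0147) and by 2.82 for Psmb8 (0.0433). The other two were predicted genes. Gm12238 was listed at 0 in all libraries but both B16F10 Aoah tumours (29.7 and 32.3 TPM), and Gm56050 at 0 in all but both B16F10 Vector tumours (59.2 and 31.3 TPM), so that each was tested only because of the group that makes the difference. For Retnla the value was -8.28 (limma adjusted p = 0.40) and for H2-K1 2.18 (0.051). The count was 45 without B16mhgp100 Aoah 4, 6 without B16F10 Vector 1, 2 without B16F10 Vector 2 and 10 after median-of-ratios scaling, all alternatives chosen after seeing the data. No difference beyond these was shown for the lists.

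By position, chromosome 10 had the highest share of genes called higher and was looked at more closely, a choice made after its values were seen. Chromosomes were taken from RefSeq GRCm38.p6 for 92.3% of the kept genes. On chromosome 10, 68 of 689 genes were called higher, or 9.87% against 3.01% of all genes, and 5 were called lower. The median log2 difference was 0.30 there, 0.21 against B16F10 Vector 1 alone and 0.41 against B16F10 Vector 2 alone, and chromosome 14 had a similar median of 0.32 with 2.72% called higher. The shares called lower were highest on chromosomes 17 (4.34%) and 9 (4.29%) against 1.86% of all genes, and chromosome 13 had the lowest median, -0.15. Runs along a chromosome were computed for chromosome 10 only. When the genes of chromosome 10 were put in 12 runs of 57 or 58 along the chromosome, 3 adjoining runs, from Ckap4 to Arhgap9, had medians of 0.59, 0.56 and 0.58, with 12, 7 and 16 genes higher and 0 lower. The other 9 runs had medians of 0.07 to 0.33. In the Aoah tumours the same 3 runs had medians of 0.45, 0.55 and 0.36 where all genes had -0.06. Mdm2 lies in this stretch, as do Frs2, an adaptor of growth factor receptors, Cdk4, the kinase of the G1 phase, and Hmga2, a chromatin protein. Hmga2 was at 24.5, 12.9, 14.3 and 15.7 TPM against 3.81 and 3.01 TPM (log2 difference 1.98, SE 0.27), and Cdk4 at 643, 676, 672 and 630.4 TPM against 450.2 and 416 TPM (0.60, SE 0.10). Frs2 was at 17.1, 20.02, 21.4 and 18.9 TPM against 11.9 and 7.29 TPM (0.97). Hmga2 lost the call without B16F10 Vector 2 (limma adjusted p = 0.084), and Cdk4 and Frs2 lost it without any 1 library except B16F10 Vector 1 (between 0.051 and 0.15). DNA copy number was not measured, and its part was not tested.

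**Figure D5:**
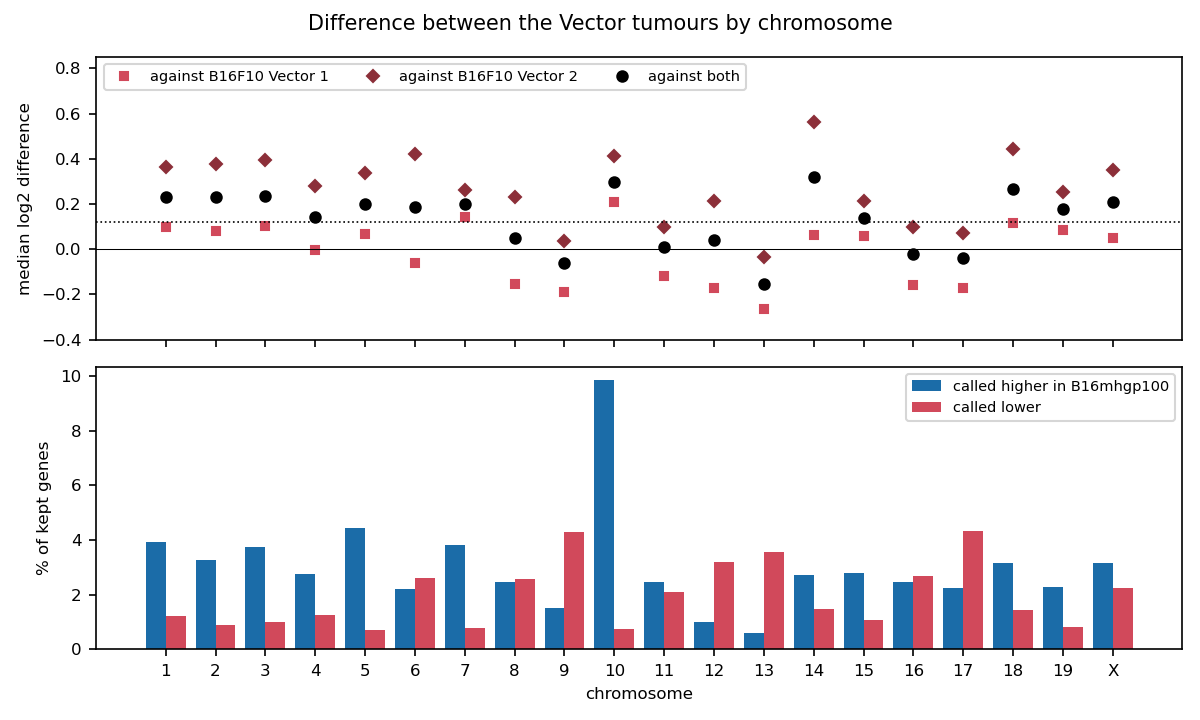
Top, the median log2 difference of the kept genes of each chromosome against both B16F10 tumours and against each of them, with the median of all genes dotted; bottom, the share of genes called in each direction. Chromosome 10 has the highest share called higher, 9.87%.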

How the data were processed

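RNA of 12 tumours was measured by polyA RNA-seq, and 6 of them form this comparison. The authors deposited expression as log2 values, which were turned back into TPM by removing a pseudocount of 1. RSEM and the build mm39 are named per the submitters' processing notes, while for versions, annotation and strand setting the sources used here give nothing. Antisense partners may therefore share reads. The authors also deposited repertoire counts of clones and clonotypes, which were compared as other values by an exact permutation test where every library had one. The authors' tables of Aoah against Vector were not used here.

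Genes with at least 1 TPM in 2 of the 6 libraries entered a fit of log2(TPM + 1) by limma 3.58.1 (R 4.3.3), with an intensity trend, 2-sided, at a Benjamini-Hochberg adjusted p of 0.05. Differences are B16mhgp100 minus B16F10, and this scale understates the change of low genes. The method was tested on simulated data. The comparison of the Aoah tumours used their 6 libraries alone, and the difference of the 2 comparisons used all 12. Members and gene lists were chosen with earlier results of these data known. Named genes are Pmel and Aoah, the 12 called genes with the largest difference in each direction and a group mean of 5 TPM or more, and up to 4 genes with the smallest p in each list. Predicted genes, pseudogenes and receptor segments, 53 of the 647 called genes at that level, were left out of the first step, and some named genes are not reported here. List members given beside these show the rest of a pathway and were chosen after their values were seen. Promoter sequences and positions are from RefSeq GRCm38.p6, and no coordinate was moved between builds. Replicate numbers were not treated as pairs, since the labels do not say that they mark pairs. Same-numbered deviations correlated at -0.255 and -0.119. With 2 B16F10 libraries, whose deviations mirror each other, these values cannot decide whether tumours were paired. Alternatives were pseudocounts of 0.1 and 0.5, other filters, scalings and models, and each library left out.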

Additional observations from a re-analysis of the deposited data

Results flagged for a closer look

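In 5 genes the gap between the models differed between the Vector and the Aoah tumours by the test of that difference itself (limma over all 12 libraries). The log2 difference of B16mhgp100 over B16F10 in the Vector tumours, minus that in the Aoah tumours, was 3.52 for Apol9a, 2.82 for H2-DMb1, 2.82 for Psmb8, 5.00 for Gm12238 and -5.46 for Gm56050. Both Gm genes were listed at 0 in 10 of 12 libraries and were tested only because of the 2 libraries of the group that makes the difference, so their passing adds nothing. In other genes 1 of the 4 B16mhgp100 Vector tumours lay far from the other 3, by a rule that chance meets in about 1 of 20 groups. Vector 1 was the low library for Vmn1r139, at 7.37 TPM, and the high one for Xlr3b (19.0 TPM), Clec3b (4.28 TPM), Perp (23.5 TPM), Myh1 (17.5 TPM), Zfp36 (17.9 TPM) and Atf3 (46.8 TPM). Vector 2 was the high library for Retnla (9.87 TPM) and Cck (3.65 TPM), and the low one for Mcam (144 TPM), Phgdh (280 TPM) and Casp1 (22.3 TPM). Vector 4 was the high library for Cd247, at 6.58 TPM.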

How the results depend on the processing

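The 743 calls (459 higher, 284 lower) became 363 (175, 188) with no filter on low values, 324 (187, 137) in a fit of all 12 libraries, 136 (99, 37) with array weights and 147 (103, 44) against a log2 change of 0.5. The lower calls numbered 487 after median-of-ratios scaling and 535 after quantile normalization. With 1 library left out the calls ran from 160 to 3814, the higher from 108 to 3105 and the lower from 36 to 709. With the replicate number as a block, where only numbers 1 and 2 occur in both models, 120 genes were called (65 higher, 55 lower). The Aoah comparison went from 20 calls to 99 after median-of-ratios scaling and to 4268 without B16mhgp100 Aoah 4, and the test of the difference from 5 to 10, 45 and, without B16F10 Vector 2, 2. These last were chosen after seeing the data. The cause was not tested. Of 73 named genes that were called, 29 kept the call in all 19 settings and 0 reversed. The TPM unit hides the depth, and 2 B16F10 libraries limit every comparison here.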

Other observations

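Predicted genes and small RNAs gave some of the widest gaps. Gm54730 was at 344, 486, 178 and 421 TPM in the B16mhgp100 Vector tumours and was listed at 0 in both B16F10 Vector tumours. Gm25777 was at 65.1, 68.4, 59.4 and 31.0 TPM against 0 in both. In the other direction, Gm37376 was listed at 0 in all 4 B16mhgp100 Vector tumours and was at 24.8 and 272 TPM in B16F10. Gm56050 was likewise listed at 0 in B16mhgp100 and was at 59.2 and 31.3 TPM in B16F10. The function of these genes is not given in the files.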
